A study of Mus musculus with 3 samples.

Results

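Macrophage_2 is a cluster of resident macrophages of the mouse kidney, defined by the cluster name that the study gave to each cell in its deposited count table. It held 1680 of the 20266 immune cells in the table, in which 23 clusters were named. The study dissected kidneys of untreated male C57BL/6J wild-type mice, 10 weeks old, into cortex, outer zone of the medulla (outer medulla, OM) and inner zone (inner medulla, IM), sorted live CD45+ cells and sequenced their RNA in droplets at 3 facilities, giving the Aachen, Bonn and Hamburg datasets. The 3 compartments are the only groups, and no agent or mutant allele was given. The 9 libraries of compartment by facility served as samples, with the facility as replicate. Nothing in the sources used here says how many mice stand behind a library, so the p-values measure only the spread between libraries, which may be technical. Macrophage_2 had 701 cells in cortex, 508 in OM and 471 in IM. By library in the order cortex, OM and IM, it had 176, 364 and 361 cells in Aachen, 449, 54 and 67 in Bonn, with 76, 90 and 43 in Hamburg.

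Resident macrophages of the kidney lie between the tubules and vessels, take up debris and complexes, present peptides on major histocompatibility complex (MHC) class II molecules and make the complement component C1q. They derive in part from precursors seeded before birth that renew themselves, and in part from blood monocytes that enter the tissue and take on a macrophage state. Ccr2, the receptor for the chemokine Ccl2, guides monocytes out of the marrow and is usually lost as they become resident. Immediate early genes such as Fos and Egr1 are switched on within minutes of a stimulus, and are also known to rise while tissue is being digested into single cells.

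Depth differed between the datasets. The median Macrophage_2 cell of Aachen, Bonn and Hamburg had 941, 4328 and 3512 unique molecular identifiers (UMIs, 1 per captured RNA molecule), and the summed UMIs of the cluster ran from 178511 to 2530024 per library. All stored values in Aachen and Bonn were whole numbers, but only 0.118% of those in Hamburg were, so Hamburg values were rounded for count tests. A doublet caller marked 79 Macrophage_2 cells, 64 of them in the Bonn cortex library, and 259 of the 449 cells of that library held at least 2 UMIs of T cell or B cell markers. Barcodes shared between compartments of a facility touched 4 Macrophage_2 cells.

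The defining markers were present in every library. C1qa (chr4:136895916-136898844, GRCm38), a chain of C1q, stood at 10599, 9933 and 10026 CPM (counts scaled to a common library size, here with TMM factors) in cortex, OM and IM of Aachen, at 6213, 6552 and 5350 in Bonn, and at 5103, 5800 and 5196 in Hamburg. With each cell thinned to 500 UMIs, 96.9%, 93.9% and 88.0% of Macrophage_2 cells had a C1qa UMI in Aachen, Bonn and Hamburg, against 7.71%, 0.645% and 0.758% of T and B cells. Cd74, the invariant chain of MHC class II, ranged from 57954 to 108068 CPM over the 9 libraries, and Adgre1, which encodes F4/80, from 352 to 958 CPM. None of the 3 differed between medulla and cortex beyond the spread of the libraries (log2 changes of -0.02 ± 0.11 (SE), 0.08 ± 0.10 and 0.04 ± 0.14 for C1qa, Cd74 and Adgre1; edgeR quasi-likelihood test, adjusted p of at least 0.999). The 14 resident macrophage markers summed to 1070, 993 and 884 UMIs per 10000 in Aachen, Bonn and Hamburg, and to 170, 158 and 100 in the Monocyte cluster.

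The levels of gene groups were compared between Macrophage_2 and 5 related clusters. The clusters were made from the expression of these same cells, so the values that follow describe them and carry no test. The 12 genes of MHC class II presentation took 1488, 1432 and 1128 UMIs per 10000 in Aachen, Bonn and Hamburg, and the complement genes 212, 211 and 186. MHC class II stood at 1310, 1347 and 1205 in Macrophage_1 and at 1507, 1503 and 1519 in Macrophage_3, and both groups lay far above Monocyte. Immediate early genes took 89.1, 34.0 and 316 UMIs per 10000 in Macrophage_2 but 313, 171 and 607 in Macrophage_1. Macrophage_3, at 94.2, 47.9 and 379, and Isg+_Macrophage, at 126, 43.6 and 191, were also low, so it was Macrophage_1 that stood apart among these 4 clusters. The datasets differed too, with Bonn lowest and Hamburg highest in each of Macrophage_1, Macrophage_2 and Macrophage_3.

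**Figure D1:**
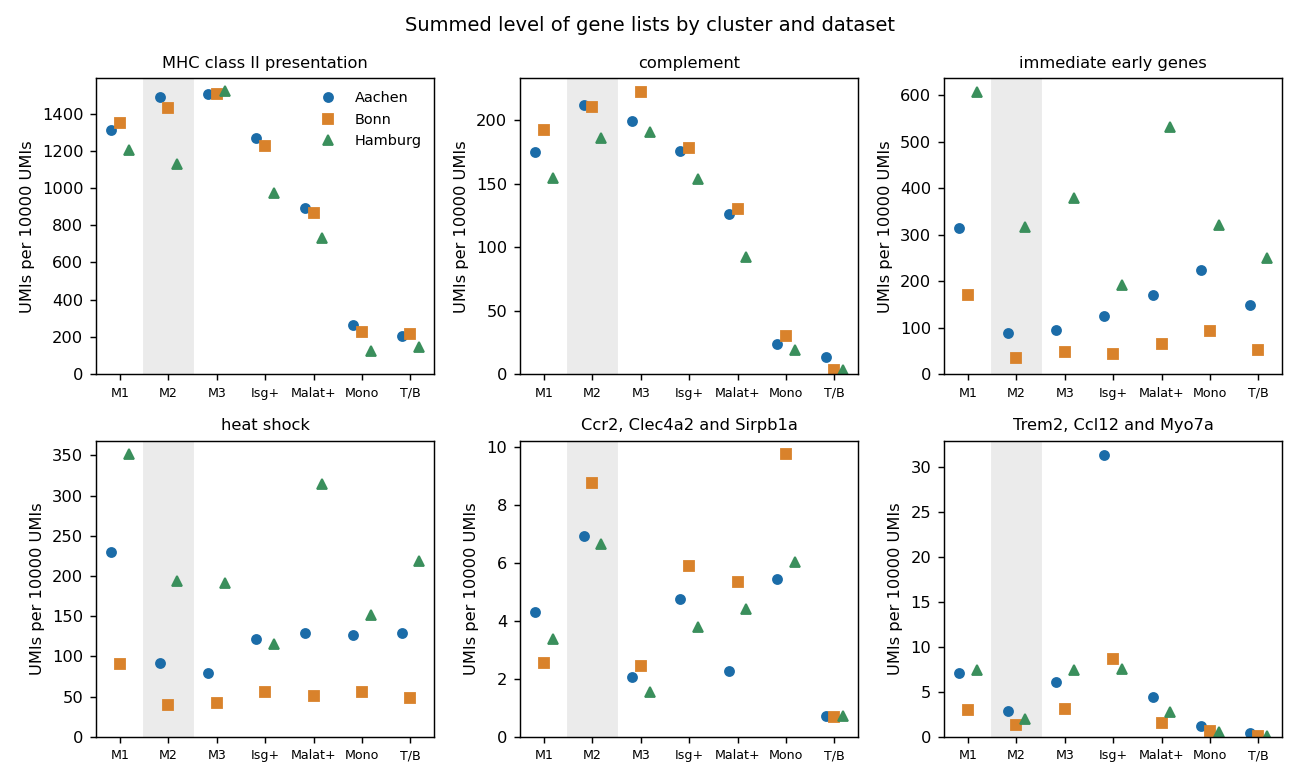
UMIs of 6 gene lists per 10000 UMIs (y axis) in Macrophage_1 (M1), Macrophage_2 (M2, shaded), Macrophage_3 (M3), Isg+_Macrophage, Malat+_Macrophage, Monocyte (Mono) and T and B cells (T/B, x axis), 1 point for each dataset. Macrophage_2 was below Macrophage_1 in immediate early genes in each dataset (89.1, 34.0 and 316 against 313, 171 and 607), and above Macrophage_1 and Macrophage_3 in the sum of Ccr2, Clec4a2 and Sirpb1a (6.9, 8.8 and 6.6).

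Against Macrophage_1, Macrophage_2 was marked mainly by lower genes. Of 7602 genes compared, 2 (0.0263%) were at least 2-fold higher and 37 (0.487%) at least 2-fold lower in each of the 3 datasets. Among the lower genes were 10 of the 18 measured immediate early genes (Fosb, Jun, Junb, Egr1, Atf3, Ier2, Ier5, Klf2, Klf4 and Btg2), whose list had a median log2 difference of -1.93 against 0.01 over all genes. They also included 3 of 11 heat shock genes (Hspa1a, Dnajb1 and Hsp90aa1, list median -1.40) and 4 of 19 chemokines and cytokines (Ccl12, Cxcl1, Cxcl2 and Cxcl10, list median -1.41). Cxcl2, which draws neutrophils, stood at 70.5, 9.71 and 682 CPM in Macrophage_2 and 928, 236 and 2919 CPM in Macrophage_1 in Aachen, Bonn and Hamburg, a log2 difference of -3.38 ± 1.16 (SD over 3 datasets). Socs3, a feedback inhibitor of cytokine signalling, differed by -3.31 ± 1.35, and the cell cycle inhibitor Cdkn1a by -2.40 ± 0.43. All of these differences had the same sign in every dataset but varied widely in size. They are also mixed with compartment, as Bonn had 24 Macrophage_1 cells in cortex and 285 in IM, against 449 and 67 of Macrophage_2. With the clusters compared within each of the 9 libraries, the median difference reached 2-fold for 20 higher and 77 lower genes.

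The genes higher in Macrophage_2 than in Macrophage_1 differed less. Those described here had the same sign in each dataset, but none of them was at least 2-fold higher in each. S100a4, from the list of monocyte markers, was 1 of the 2 genes that were. The aspartic protease Napsa stood at 148, 120 and 108 CPM against 54.8, 43.9 and 54.4 (log2 difference 1.26 ± 0.26). Itgax, the integrin chain CD11c, stood at 81.5, 156 and 171 CPM against 37.3, 40.1 and 100.1 (1.25 ± 0.59). Ccr2 differed by 1.25 ± 0.86 and the inhibitory receptor Pilra by 1.36 ± 0.80. Ccl5, a chemokine for T cells and monocytes, had the highest mean difference, 1.55, but its SD of 1.50 was nearly as large. It differed by 3.18 in Bonn, where 259 of 449 cortex cells held lymphocyte UMIs, but by only 0.24 in Aachen. The T cell markers also had a list median of 0.95 over Macrophage_1, and the part of lymphocyte RNA in Ccl5 was not tested. Napsa had the smallest spread of the 10 genes in this direction.

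The gap in immediate early genes was seen in most cells. At 500 UMIs per cell, the median cell held 3, 1 and 14 immediate early UMIs in Macrophage_2 of Aachen, Bonn and Hamburg, and 15, 7 and 30 in Macrophage_1. Only 12 of 832 Macrophage_2 cells of Aachen (1.44%), 5 of 570 of Bonn (0.877%) and 8 of 209 of Hamburg (3.83%) reached the Macrophage_1 median. For the heat shock list 53, 92 and 23 cells did, and for chemokines and cytokines 71, 202 and 79. More Macrophage_2 cells thus reached the Macrophage_1 median for chemokines and cytokines than for immediate early genes in each dataset. The Macrophage_1 median for chemokines and cytokines was only 7, 2 and 10 UMIs, so these shares do not compare the overlap of the lists.

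Against Macrophage_3, Macrophage_2 held more transcripts of Ccr2, Itgax and other adhesion genes and fewer of some genes of the scavenging list. Of 7649 genes, 58 (0.758%) were at least 2-fold higher and 44 (0.575%) at least 2-fold lower in each dataset. The higher genes included 5 of 17 genes of adhesion and integrins (Itgax, Itgal, Cd9, Adgre4 and Adgre5, list median 0.72 against 0.04 for all genes) and 2 of 4 measured matrix metalloproteinases and inhibitors (Mmp12 and Mmp14). Ccr2 stood at 224, 400.1 and 178 CPM in Macrophage_2 of Aachen, Bonn and Hamburg but at 14.7, 42.6 and 4.10 CPM in Macrophage_3 (log2 difference 3.95 ± 0.89). The elastase Mmp12 stood at 769.7, 475 and 1190 CPM against 44.2, 145 and 201. Adgre5, which encodes the adhesion receptor CD97, was higher by 2.33 ± 0.17.

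The lower genes against Macrophage_3 included 3 of 8 measured genes of the list for scavenging and uptake of dying cells (list median -1.15). They were Stab1, Gas6 and the growth factor gene Igf1. Gas6, a bridge between dying cells and the receptors that engulf them, stood at 18.0, 18.0 and 9.36 CPM against 136, 119 and 129. Trem2, a lipid-sensing receptor, was lower by a log2 difference of -1.77 ± 0.29, the apolipoprotein gene Apoe by -1.36 ± 0.19, and Lyz2, lysozyme, by -1.74 ± 0.43. Fxyd2, a subunit of the sodium pump best known from kidney tubules, had the lowest difference, -4.09 ± 1.25. Macrophage_2 was thus on the high side for Ccr2 and Itgax and on the low side for Gas6, Trem2 and Fxyd2 against both large clusters.

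The clusters filled the compartments differently, with 873 of the 880 Macrophage_3 cells of Aachen in OM and none of those of Hamburg in cortex, so these differences are mixed with compartment. In a comparison chosen after seeing the data, the OM libraries alone gave 22 genes at least 2-fold higher and 22 at least 2-fold lower in each dataset, of 7523. The 10 highest and 10 lowest genes kept their sign in each dataset there, mostly with smaller differences. Ccr2 differed by 3.26 ± 0.58 within OM, Fxyd2 by -3.03 ± 0.56, Apoe by -1.13 ± 0.22 and Trem2 by -1.44 ± 0.18, whereas Adgre5 fell to 1.43 ± 1.30 and Itgal kept its sign in only 2 datasets.

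**Figure D2:**
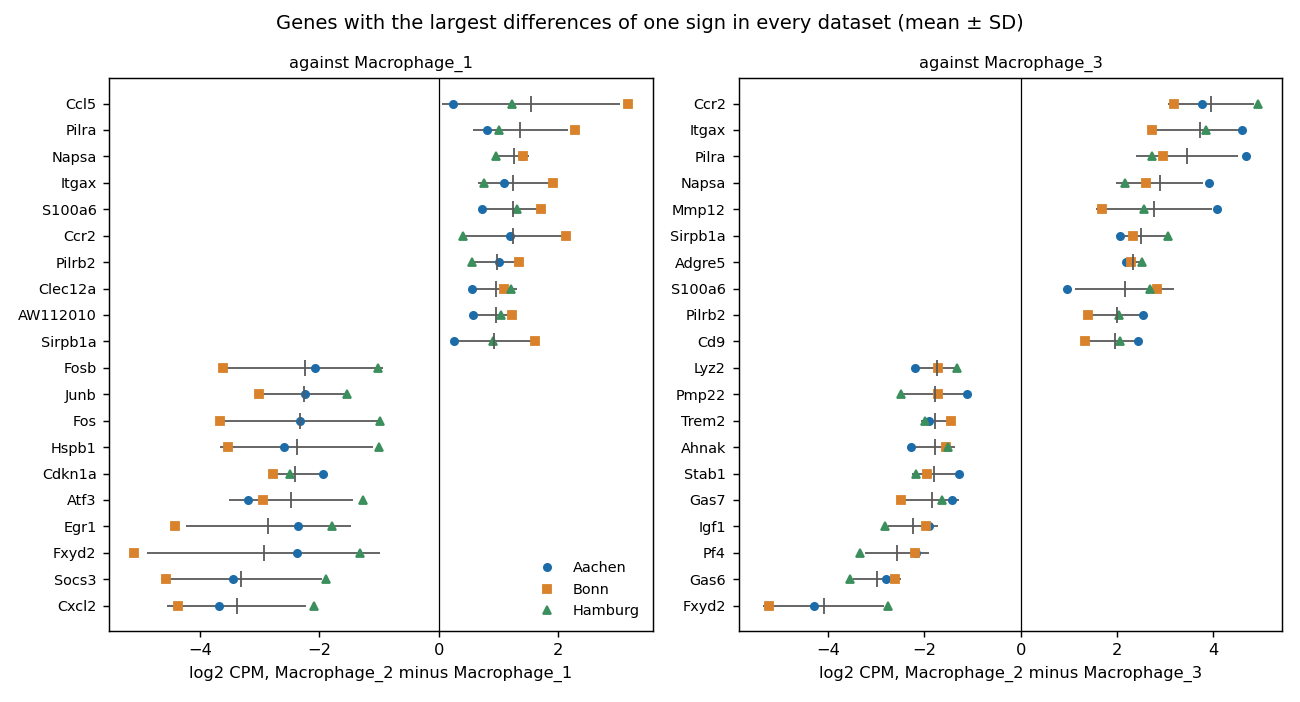
Difference in log2 CPM (x axis) of the 10 highest and 10 lowest genes of Macrophage_2 against Macrophage_1 and against Macrophage_3 (y axis), with 1 point per dataset, a tick at the mean and a bar of 1 SD. Cxcl2 lay lowest against Macrophage_1 (mean -3.38), Fxyd2 lowest against Macrophage_3 (-4.09) and Ccr2 highest against Macrophage_3 (3.95).

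Ccr2 was detected in more Macrophage_2 cells than cells of the other large clusters. At 500 UMIs per cell, 7.33%, 19.5% and 10.0% of cells had a Ccr2 UMI in Aachen, Bonn and Hamburg, against 2.86%, 2.95% and 6.73% in Macrophage_1 and 0.371%, 1.55% and 0.662% in Macrophage_3. T and B cells, some of which can express Ccr2, gave 1.76%, 2.81% and 2.89%, above the Macrophage_3 shares in each dataset. Before thinning, the Macrophage_2 shares were 14.2%, 60.5% and 38.8%, and the T and B cell shares 3.89%, 11.9% and 12.6% at median depths of 865, 2935 and 2897 UMIs. Itgax was detected in 3.12%, 7.19% and 6.70% of thinned Macrophage_2 cells, against 0.176%, 0.205% and 0.197% of T and B cells.

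By the number of genes that differed, Monocyte was the most distant of the clusters, with 324 of 7582 genes (4.27%) at least 2-fold higher and 310 (4.09%) at least 2-fold lower in Macrophage_2 in each dataset. Of the monocyte markers, 9 of 12 were lower (Ly6c2, Plac8, Chil3, S100a4, Fn1, Ace, Treml4, Ear2 and Nr4a1, list median -5.14), and 9 of 13 measured resident markers were higher. Ly6c2, which marks classical monocytes, stood at 16.6, 44.1 and 1.17 CPM in Macrophage_2 and 640.4, 1082 and 1048 CPM in Monocyte. Ccr2 did not follow the other monocyte markers, with 281, 637 and 372 CPM in Monocyte and a difference of only -0.68 ± 0.37. Mmp12 (4.57 ± 1.19) and C1qa (4.07 ± 0.71) were among the genes highest over Monocyte.

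Isg+_Macrophage was marked by interferon genes. Against Isg+_Macrophage, 23 of 7532 genes (0.305%) were at least 2-fold higher and 98 (1.30%) at least 2-fold lower in each dataset, and the lower genes included 12 of the 15 interferon response genes (list median -2.86 against 0.18 for all genes). The balance of higher and lower genes depended on the processing, with 241 higher and 35 lower at 500 UMIs per cell, 238 and 172 without Bonn, and 556 and 169 where the median over libraries had to reach 2-fold. Cxcl9, an interferon-induced chemokine, stood at 13.8, 48.6 and 44.5 CPM in Macrophage_2 against 658, 1689 and 2531. Against Malat+_Macrophage, 43 of 7845 genes (0.548%) were at least 2-fold higher and 34 (0.433%) at least 2-fold lower, with 4 of 8 measured C-type lectins among the higher genes (Clec4a2, Clec4b1, Clec4n and Clec12a). By the median over libraries 442 were higher and 113 lower, and without Bonn 141 and 180. The clusters also differed in broader lists, as the resident macrophage markers summed to 632.5, 591 and 558.5 UMIs per 10000 in Malat+_Macrophage, and its B cell markers in Bonn to 57.4 against 11.3 in Macrophage_2.

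Within Macrophage_2, a small set of Hamburg cells was nearly without MHC class II. It was seen in the data and chosen after its values were seen, so it is described without a test. At 500 UMIs per cell, 23 of 209 Hamburg cells held 10 or fewer UMIs of the 12 MHC class II genes, 22 of them 4 or fewer, and the next cell held 13. They were 11 of 76 cells in cortex, 9 of 90 in OM and 3 of 43 in IM. In Aachen 0 of 832 and in Bonn 0 of 570 cells were so low, which allows shares of up to 0.361% and 0.526%, and their lowest cells held 13 and 15. Of the other Hamburg clusters, Isg+_Macrophage held 16 such cells of 109 and Malat+_Macrophage 59 of 374, but Macrophage_1 held only 2 of 505 and Macrophage_3 0 of 151, which allows up to 1.99%.

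**Figure D3:**
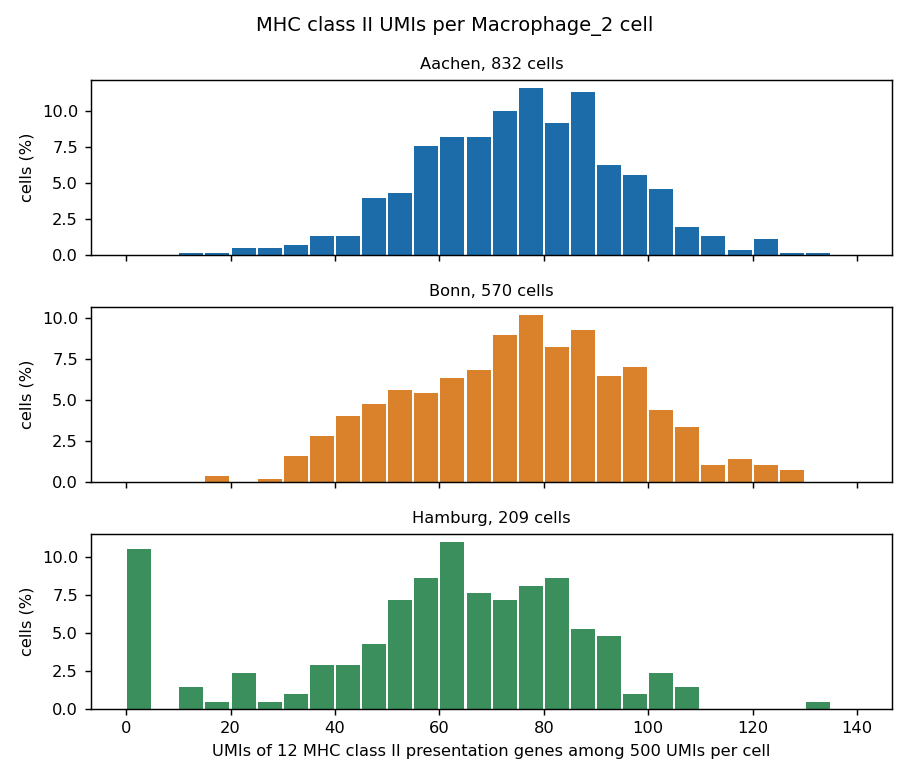
Share of Macrophage_2 cells (y axis, %) by the number of MHC class II UMIs among 500 UMIs per cell (x axis, bins of 5 UMIs), 1 panel per dataset. Hamburg alone had a separate group at the low end, 22 of 209 cells at 4 or fewer UMIs, with 0 cells between 5 and 9.

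The low cells kept macrophage transcripts, here counted at full depth. A C1qa UMI was present in 23 of 23, and Adgre1 stood at 2413 CPM against 679 CPM in the other Hamburg cells. Cd74 stood at 666 CPM against 72779, but it is among the MHC class II genes by which the cells were chosen, so this gap follows from the choice. Ciita, the activator of MHC class II transcription, had a UMI in 0 of 23 against 68 of the other 186. A count of 0 allows up to 13.0% of such cells to hold a UMI, and does not limit how many express the gene. Ccr2 and Mmp12 also had a UMI in 0 of 23, while 81 and 106 of the other 186 cells had one. Fcrls, an Fc receptor-like gene known from microglia, was present in 23 of 23 low cells at 1451 CPM, against 9.56 CPM in the other Hamburg cells and a UMI in 19 of 1402 cells (1.36%) of Aachen and Bonn. Acp5, an acid phosphatase, stood at 2752 against 222 CPM, and Itgal, the integrin chain CD11a, at 875 against 73.6 CPM. The low cells were not shallow, with a median of 4428 UMIs against 3420, and doublets could not be assessed, as the caller had not worked in Hamburg. Only Hamburg values were not whole numbers, and the part of that processing in this group was not tested.

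The share of Macrophage_2 among sorted cells showed no compartment pattern shared by the 3 datasets. Of all CD45+ cells it made up 12.6%, 9.90% and 17.4% in cortex, OM and IM of Aachen, 12.3%, 8.70% and 3.58% in those of Bonn, and 3.10%, 3.67% and 2.09% in those of Hamburg. The mean difference of medulla minus cortex was -1.77 ± 3.82 percentage points (SD over 3 facilities, exact permutation p = 0.556, two-sided). Aachen was highest in IM, Bonn in cortex and Hamburg in OM.

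Among resident macrophages (Macrophage_1, Macrophage_2, Macrophage_3 and Isg+_Macrophage), Macrophage_2 took 35.5%, 18.6% and 60.6% in cortex, OM and IM of Aachen, 83.3%, 32.1% and 10.4% in those of Bonn, and 32.8%, 18.6% and 16.6% in those of Hamburg. The share was lower in OM than in cortex in each dataset, with a mean difference of -27.4 ± 20.6 percentage points (-16.8 in Aachen, -51.2 in Bonn and -14.1 in Hamburg). IM minus cortex was 25.1 points in Aachen but -72.9 in Bonn and -16.2 in Hamburg. Medulla minus cortex came to -24.3 ± 34.0 points (exact permutation p = 0.222, two-sided, 0.444 adjusted over both shares), where the 27 arrangements allow no p below 0.037. Macrophage_3 took 44.7%, 42.9% and 23.0% of resident macrophages in OM of Aachen, Bonn and Hamburg, against 0%, 7.05% and 0% in cortex, where the counts of 0 allow up to 0.605% in Aachen and 1.29% in Hamburg. The Aachen cortex library holds 2 barcode series, in which Macrophage_2 took 63 of 281 (22.4%) and 113 of 215 (52.6%) resident macrophages, a gap as wide as some of those between compartments.

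**Figure D4:**
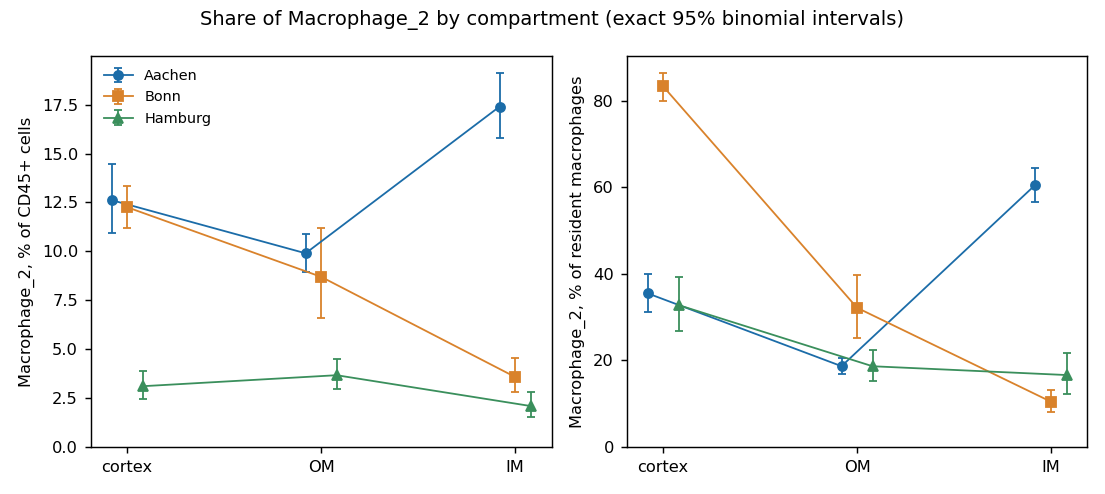
Macrophage_2 as a percentage of CD45+ cells (left) and of resident macrophages (right) by compartment (x axis), 1 line per dataset, with exact 95% binomial intervals that cover counting error only. Only the right panel falls from cortex to OM in every dataset, and IM of Aachen (60.6%) rises where Bonn (10.4%) and Hamburg (16.6%) fall.

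Few genes differed between the compartments in Macrophage_2. Of 4989 genes tested on UMIs summed per library, 8 (0.160%) differed between OM and cortex, 1 (0.0200%) between IM and cortex, 8 (0.160%) between OM and IM, and 1 (0.0200%) between medulla, the mean of OM and IM, and cortex, at an adjusted p under 0.05 (edgeR quasi-likelihood test with facility as block). Without adjustment 302, 195, 260 and 253 genes had p under 0.05. DESeq2 called 0, 0, 1 and 0 genes, with 72, 34, 55 and 59 before adjustment. Without Bonn, edgeR called 25, 10, 11 and 17 genes. In medulla against cortex, the median log2 change over all genes was 0.00.

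Macrophage_2 sums held more Fxyd2, Pf4 and Apoe in OM than in cortex. Fxyd2 (chr9:45399709-45410278, GRCm38) stood at 19.3, 105 and 19.2 CPM in cortex, OM and IM of Aachen, at 7.5, 35.7 and 54.0 in Bonn, and at 23.0, 95.9 and 87.1 in Hamburg. OM exceeded cortex in each dataset, and IM in Bonn and Hamburg only. The log2 change was 2.50 ± 0.41 (SE, adjusted p = 0.0017) in OM and 2.25 ± 0.37 (adjusted p = 0.0035) in the mean of both medullary compartments. These levels rest on 4 to 33 UMIs per library. In T and B cells, which are not known to make Fxyd2, the sums also held more in OM than in cortex, at 49.6 against 7.90 CPM in Aachen, 6.25 against 1.16 in Bonn and 5.30 against 3.15 in Hamburg, and the part of free RNA in the Macrophage_2 result was not tested. The other nephron markers were sparse, with 7 to 11 of the 13 genes at 0 in each library and a summed level of 0.162 to 2.94 UMIs per 10000. In medulla the call was lost without the Hamburg dataset (adjusted p = 0.081) and without the Bonn cortex, Bonn IM or Hamburg IM library (0.157, 0.066 and 0.059), and without doublets and cells with lymphocyte UMIs (0.146), whereas in OM no library or dataset left out ended it. Fxyd2 was also the gene by which Macrophage_3 exceeded Macrophage_2 most, and the part of the Macrophage_3 share, which was larger in OM than in cortex, in this result was not tested.

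Pf4, a platelet chemokine also made by macrophages, stood at 126, 377 and 119 CPM in cortex, OM and IM of Aachen, 60.5, 104 and 105 in Bonn, with 32.8, 55.2 and 21.8 in Hamburg (OM against cortex, log2 change 1.22 ± 0.25, adjusted p = 0.022). Apoe, the lipid carrier, stood at 10870, 14019 and 12050 CPM in Aachen, 6612, 8978 and 7255 in Bonn, with 2612, 5797 and 3819 in Hamburg (0.65 ± 0.14, adjusted p = 0.036). For both genes OM was above cortex in every dataset, while the datasets themselves lay further apart than the compartments. In T and B cells of Aachen both genes rose as well, from 1.32 to 36.9 CPM for Pf4 and from 379 to 1520 CPM for Apoe. They did not in Bonn (0.516 against 0 and 131 against 104) or Hamburg (1.26 against 0.663 and 119 against 73.2). Pf4 was no longer called without Aachen or Hamburg (adjusted p = 0.662 and 0.0904) or without the Aachen cortex, Aachen OM, Bonn cortex, Hamburg cortex or Hamburg IM library. Apoe was no longer called without Aachen or Hamburg (0.151 and 0.731) or without any 1 library of these datasets other than Aachen OM. Lyz2 did not pass in medulla (0.67 ± 0.17, adjusted p = 0.228), nor did Trem2 (1.34, adjusted p = 0.188). Pf4, Apoe, Lyz2 and Trem2 were all higher in Macrophage_3 than in Macrophage_2. The Macrophage_3 share was larger in OM than in cortex, and its part in these results was not tested.

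OM cells held less Ccl2 and Ccl7, neighbouring genes for monocyte chemokines that both bind Ccr2 (chr11:82035577-82037452 and chr11:82045712-82047525, GRCm38). Ccl2 stood at 164, 109 and 99.3 CPM in cortex, OM and IM of Aachen, 9.6, 3.6 and 8.1 in Bonn, with 1451, 515 and 1159 in Hamburg (OM against cortex, -1.28 ± 0.23, adjusted p = 0.0049). Ccl7 stood at 29.0, 4.5 and 19.2 CPM in Aachen, 1.4, 0 and 0 in Bonn, with 522, 128 and 739.95 in Hamburg (-2.09 ± 0.30, adjusted p = 0.00025). Ccl7 was also lower in OM than in IM (-2.46, adjusted p = 1e-05). Bonn held 4 Ccl7 UMIs in all. Aachen held 6, 1 and 6 in cortex, OM and IM, against 159, 44 and 136 in Hamburg, so this change rests mostly on Hamburg. Without the Hamburg dataset Ccl2 was not called in OM against cortex (adjusted p = 0.894), and Ccl7 fell below the filter on low counts and was not tested. Both genes were also not called in OM against cortex without the Hamburg cortex or OM library or with cells thinned to 500 UMIs (0.725 for Ccl2 and 0.304 for Ccl7). The difference of Ccl7 between OM and IM was likewise lost without the Hamburg OM or IM library (0.790 and 0.943) and at 500 UMIs per cell (0.976). Acp5 was lower in OM in each dataset (-1.23 ± 0.25, adjusted p = 0.022), but it no longer passed once the 23 Hamburg cells low in MHC class II, which were rich in it, were left out (log2 change -1.04, 0.528), nor without the Hamburg dataset (0.106) or without the Bonn cortex, Hamburg OM or Hamburg IM library. The Acp5 call was also lost at 500 UMIs per cell (0.851), and without doublets and cells with lymphocyte UMIs (0.132). In cortex of Aachen, Bonn and Hamburg, T and B cells held 90.9, 181 and 115 CPM of Acp5, against 38.6, 46.9 and 650 in Macrophage_2. The part of lymphocyte RNA was not tested.

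**Figure D5:**
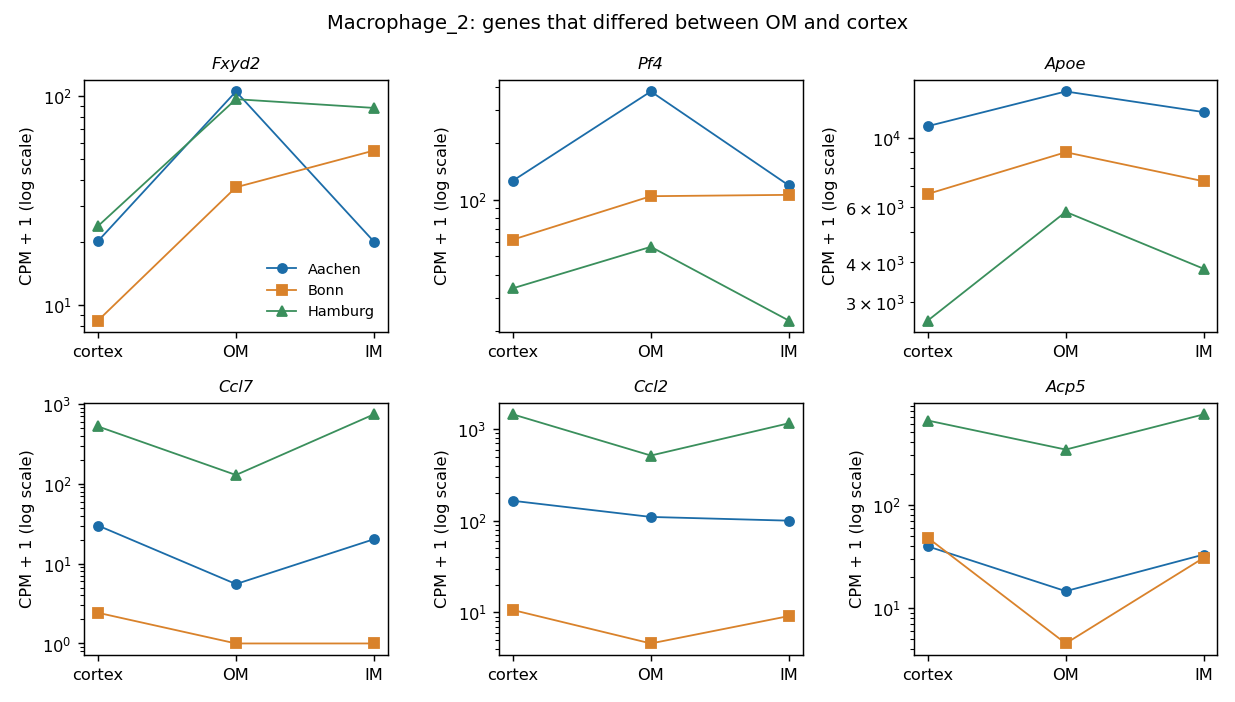
CPM + 1 (y axis, log scale) of 6 genes in Macrophage_2 by compartment (x axis), 1 line per dataset. Fxyd2, Pf4 and Apoe were higher, and Ccl7, Ccl2 and Acp5 lower, in OM than in cortex in each of the 3 datasets. In Bonn, Ccl7 had 4 UMIs in cortex and 0 in OM, and Ccl2 and Acp5 had 1 UMI each in OM, so their direction there is weakly based.

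Immunoglobulin and B cell genes made up most of the other calls. Cd79a, a B cell receptor chain, and Igkc were lower in OM than in cortex (-3.05 ± 0.57 and -3.70 ± 0.76) and than in IM, against which Iglc2 and Iglc3 were also lower. Cd79a stood at 206, 3.6 and 349 CPM in cortex, OM and IM of Bonn, but at 9.7, 18.2 and 12.8 in Aachen and 6.6, 5.8 and 10.9 in Hamburg. The difference of Cd79a lay in Bonn alone, where B cell markers summed to 11.6, 3.26 and 14.7 UMIs per 10000. After doublets and cells with lymphocyte UMIs were left out, Cd79a, Igkc, Iglc2 and Iglc3 fell below the filter on low counts and were not tested, as the removed cells were chosen on lists that hold Cd79a and Igkc. Fxyd2, Pf4, Apoe, Ccl2 and Ccl7 were still called in OM against cortex. Cd209a, a lectin of dendritic cells, was lower in OM than in IM (-2.67), but this change lay mostly in Hamburg (2.91 against 283 CPM, from 1 and 52 UMIs) and was lost without that dataset (-0.45, adjusted p = 0.944), without its OM or IM library and without doublets and cells with lymphocyte UMIs. Ly6a was also lower than in IM (-2.30), a call lost without the Bonn OM, Bonn IM or Hamburg IM library. Maf, a transcription factor of resident macrophages, was higher in OM than in IM in each dataset, with 245 against 173 CPM in Aachen, 265 against 124 in Bonn and 215 against 81.6 in Hamburg (0.94 ± 0.21, adjusted p = 0.037). This call was lost without Bonn (0.322) or Hamburg (0.837) and without each of their libraries other than Bonn cortex. It was also lost at 500 UMIs per cell (0.976), and without doublets and cells with lymphocyte UMIs (0.546). Without the Hamburg cells low in MHC class II, Maf did not pass either (0.069).

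The single gene called in IM against cortex was Gm42726 (-1.59 ± 0.30, adjusted p = 0.034), which had UMIs almost only in Aachen and changed sign without the Aachen cortex or IM library. Of the other genes with the lowest p in medulla against cortex, Cxcl9 (1.58, adjusted p = 0.062) and Ccl2 (-0.85, adjusted p = 0.062) came closest without passing. Isg15, Rasgrp1, Gas7 and Snrnp200 did not pass either.

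The gene lists held no called member between compartments beyond those named above. In OM against cortex, 5 of the 6 tested genes of the scavenging list were higher in all 3 datasets (83.3%, against 13.3% of all genes, median 0.46), although none of them was called. Stab1, Gas6 and Igf1 of that list were higher in Macrophage_3 than in Macrophage_2, and the part of the Macrophage_3 share was not tested. Immediate early genes were lower in all 3 datasets for 7 of 18 (38.9%, against 12.01% of all genes; median -0.18), again with none called. The list medians for MHC class II presentation, complement, osmotic response and hypoxia were 0.13, 0.20, -0.01 and 0.17, against 0.01 over all genes, with none called. Ccr2, Clec4a2 and Sirpb1a were lower in OM than in cortex in each dataset (3 of 3, against 12.01% of all genes, median -0.21), and none passed. These counts are given beside all genes and carry no test.

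The change from cortex to medulla was compared between Macrophage_2 and Macrophage_1 of the same libraries. Of 5559 genes, 1 (0.0180%) differed at an adjusted p under 0.05, and 276 did before adjustment (edgeR quasi-likelihood test). The log2 change of Lyz2 in medulla was 1.65 ± 0.26 in Macrophage_1 and 0.67 ± 0.17 in Macrophage_2, a difference of -0.97 ± 0.18 (adjusted p = 0.041). In Macrophage_2, Lyz2 stood at 4425, 9419 and 4016 CPM in cortex, OM and IM of Aachen, 2998, 4499.95 and 6853 in Bonn, with 4249.99, 5983 and 5979 in Hamburg. T and B cells of Aachen also held more Lyz2 in OM (878 CPM) and IM (267) than in cortex (84.3). In those of Hamburg only OM was above cortex (66.3 CPM, with 17.0 in IM and 21.0 in cortex). In those of Bonn both OM and IM were below cortex (18.8 and 20.1 against 43.3 CPM). The part of free RNA was not tested. The call was lost without Bonn, whose cortex held 24 Macrophage_1 cells, with DESeq2 size factors, with cells thinned to 500 UMIs, and without doublets and cells with lymphocyte UMIs.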

How the data were processed

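Per the labels and the study's methods, the authors sequenced CD45+ cells of 3 kidney compartments on the 10x platform (v2 chemistry in Aachen, v3 in Bonn and Hamburg), aligned reads to mm10 with Cell Ranger, filtered cells on genes and mitochondrial reads, and used Seurat for integration and clusters. The deposited table holds UMI counts per cell with cluster, facility and compartment. The authors' counts were whole in Aachen and Bonn. In Hamburg the deposited values were not whole, as in estimated counts, for reasons not given in the sources used here, and sums were rounded.

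Macrophage_2 counts were summed per library (9 libraries, none under 10 cells) and tested with edgeR 4.0.16 (quasi-likelihood, TMM, filterByExpr, facility as block, Benjamini-Hochberg over all genes). DESeq2 1.42.0 was an alternative. Cluster differences were log2 CPM per facility (prior count 2, mean of at least 10 CPM) with no test. Named genes were the 10 highest and 10 lowest per cluster with 1 sign in each facility and at least 50 CPM in the higher cluster, the genes called between compartments, list members called, and the 10 lowest p where under 5 were called. The members and gene lists were chosen with earlier results of these data known. Depth was equalised by thinning cells to 500 UMIs, which left 1611 of the 1680 cells. Scrublet marked under 0.6% of cells in each Aachen and Hamburg library and so had not worked there, where doublets remain untreated in effect. Same-facility libraries deviated together (correlations of 0.71 to 0.89 in 9 pairs), which bears out the block. On simulated counts for medulla against cortex over 4989 genes, the test recovered 70.5% of 200 genes with a 2-fold change and, in a second draw, 82.5% with a 4-fold change. It also made 5 and 8 false calls. The draws held 200 changed genes and no excess planted in a single library. These rates therefore do not tell how many changes were missed in the real data, where few genes were called. Intervals are exact binomial at 95% and cover counting error only.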

Additional observations from a re-analysis of the deposited data

Results flagged for a closer look

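Lyz2 was the gene whose change from cortex to medulla differed between clusters by a test of the difference itself: Macrophage_2 minus Macrophage_1 was -0.97 on the log2 scale (edgeR quasi-likelihood test). The share of Macrophage_2 among resident macrophages rose from cortex to IM by 25.1 percentage points in Aachen and fell in Bonn and Hamburg, a difference between datasets that was not tested.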

How the results depend on the processing

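Counts of called genes are given in the order medulla, OM and IM against cortex, then OM against IM (1, 8, 1 and 8 as reported). DESeq2 called 0, 0, 0 and 1; tests without a filter on low counts called 20, 29, 25 and 23; and without the facility as replicate block 0 genes were called in each. At 500 UMIs per cell only 797 genes passed the filter on low counts. They gave 4, 8, 1 and 2 calls, of which 0, 1, 1 and 0 were among the genes reported for that comparison. Without doublets and cells with lymphocyte UMIs medulla gave 8, IM 2 and OM against IM 2. Leaving out each facility or library in turn gave 0 to 17, 4 to 25, 1 to 10 and 3 to 14, and without the cells low in MHC class II medulla gave 5 genes (these cells and the single libraries were chosen after seeing the data). The highest counts for medulla, OM and IM came without Bonn. Fxyd2 in medulla lost its call without Hamburg (adjusted p = 0.081), without the Bonn cortex library (0.157) and under DESeq2 (0.116). Gm42726 turned to 0.59 in medulla and 1.09 in IM under DESeq2, to 2.88 and 2.48 without the Aachen cortex library, and to 1.29 and 3.37 without the Aachen IM library. Over all libraries and facilities left out, Gm42726 lay between -1.32 and 2.88 in medulla and between -1.64 and 3.37 in IM. Without the Bonn OM library Igkc and Cd79a turned to 0.64 and 0.62 in OM against cortex (lowest values -8.21 and -4.26), and Igkc, Iglc3 and Iglc2 to 0.21, 3.46 and 0.34 in OM against IM (lowest values -8.66, -8.54 and -9.13, all without Hamburg), where DESeq2 gave 0.47 for Iglc3. The difference from Macrophage_1 (1 gene) gave 0 with DESeq2 size factors, 5 without a filter, 0 at 500 UMIs per cell, 0 without doublets and lymphocyte UMIs, and 0 to 1 without each facility. The share of CD45+ cells turned to 0.403 points without Bonn, with a range of -3.17 to 0.403. Genes at least 2-fold different in each facility were 39 against Macrophage_1 (66 to 99 without each facility, since fewer facilities must meet the threshold), 102 against Macrophage_3 (130 to 204), 121 against Isg+_Macrophage (210 to 410), 77 against Malat+_Macrophage (151 to 321) and, against Monocyte, 324 higher and 310 lower. At 500 UMIs per cell, Macrophage_3 gave 50, Isg+_Macrophage 276 (241 higher and 35 lower) and Monocyte 419. The cause of the other changes was not tested.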
